A study of Mus musculus with 9 samples.

Results

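The unfolded protein response and the integrated stress response are followed here through 10 transcripts, Atf4, Atf5, Ddit3, Xbp1, Trib3, Chac1, Asns, Sesn2, Ddit4 and Herpud1, chosen by name from the 23420 genes of the count matrix. The matrix holds 9 RNA-seq libraries of endothelial cells sorted from mouse brain (positive for the endothelial surface protein CD31, negative for the leukocyte protein CD45), 3 for each of 3 genotypes on the C57BL/6 strain, each from 20000 cells of a 6-month-old mouse. The APP/PS1xRIPK1KD mice combine the APP/PS1 alleles with an alteration of Ripk1, a kinase that acts downstream of tumour necrosis factor receptor 1. The labels do not spell out KD. The APP/PS1 mice carry mutant transgenes of amyloid precursor protein and presenilin 1 and are a model of brain amyloid deposition, and the labels do not name the promoters that drive the transgenes. WT mice are the controls. No group has the Ripk1 alteration without the APP/PS1 alleles. All 10 transcripts were detected and all 10 passed the filter on low counts, which 13317 genes passed.

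When unfolded proteins build up in the endoplasmic reticulum (ER), 3 membrane sensors respond. PERK phosphorylates the translation factor eIF2α, which slows protein synthesis in general while the mRNA of the transcription factor ATF4 is translated more, and other kinases reach the same step when amino acids are short or heme is lacking, hence the name integrated stress response. IRE1 splices the Xbp1 mRNA so that it encodes an active transcription factor, and ATF6 is cut free from the membrane to act in the nucleus. ATF4 and the factor CHOP, encoded by Ddit3, raise genes of amino acid supply, of glutathione turnover and of the brake on the growth kinase complex mTORC1, while XBP1 and ATF6 raise chaperones and ER-associated degradation. Brain endothelial cells make many membrane transporters and junction proteins, which are folded in the ER. A count per gene shows neither the translation of Atf4 nor the splicing of Xbp1, so only the transcript levels are described.

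The start regions of Asns, Chac1 and Herpud1 are shown because they hold the sequence elements through which these responses are known to reach their targets. They come from RefSeq on GRCm38.p6, run 5′ to 3′ on the strand of the gene from 250 bases before to 50 bases after its start, and capitals mark the matches. Asns lies at chr6:7693160-7693459 on the minus strand, Chac1 at chr2:119350992-119351291 on the plus strand and Herpud1 at chr8:94386179-94386478 on the plus strand.
Asns: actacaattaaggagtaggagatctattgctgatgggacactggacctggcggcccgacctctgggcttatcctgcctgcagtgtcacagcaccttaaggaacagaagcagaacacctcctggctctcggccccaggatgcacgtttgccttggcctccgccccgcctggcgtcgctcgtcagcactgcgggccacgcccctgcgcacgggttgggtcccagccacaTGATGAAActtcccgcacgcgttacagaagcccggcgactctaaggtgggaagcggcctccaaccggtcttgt
Chac1: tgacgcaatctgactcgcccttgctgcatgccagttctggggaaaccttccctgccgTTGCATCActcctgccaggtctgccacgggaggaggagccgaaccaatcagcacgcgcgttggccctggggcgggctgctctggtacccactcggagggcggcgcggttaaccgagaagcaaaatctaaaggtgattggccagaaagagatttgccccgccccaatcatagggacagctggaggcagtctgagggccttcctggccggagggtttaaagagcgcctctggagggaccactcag
Herpud1: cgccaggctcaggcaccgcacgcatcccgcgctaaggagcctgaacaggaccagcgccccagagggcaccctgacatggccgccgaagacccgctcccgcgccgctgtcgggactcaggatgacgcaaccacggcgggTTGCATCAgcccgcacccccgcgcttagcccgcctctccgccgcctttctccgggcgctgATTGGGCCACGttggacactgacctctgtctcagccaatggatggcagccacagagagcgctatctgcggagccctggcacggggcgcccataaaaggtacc

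The motif searched for on both strands was TGATGNAA, the core of the C/EBP-ATF response element that ATF4 binds together with a C/EBP partner. Each of the 10 genes has 1 such window except Atf5, which has 2. The motif was present in 4 of the 10 genes, Asns, Chac1, Herpud1 and Trib3, and in 4.51% of the 27025 genes with such a window. In Asns the match TGATGAAA began 23 bases before the start on the gene's own strand. Chac1 and Herpud1 held TTGCATCA, a match on the opposite strand, beginning 193 and 112 bases before the start, and Trib3 held TTACATCA beginning at base 15 after it. Herpud1 also held ATTGGGCCACG, a match to the ER stress response element II (ATTGG and CCACG with 1 base between them), beginning 52 bases before its start, a motif found in 0.0444% of genes. The longer ER stress response element (CCAAT and CCACG with 9 bases between them, 0.137% of genes) and the XBP1 element TGACGTGG (0.714% of genes) were in no window of the 10 genes. The 2 ER stress elements share the letters CCACG, and no match overlapped another. These matches describe letters in a window and do not show binding in these cells.

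Library totals ran from 16263792 to 52413200 expected counts, both extremes in APP/PS1 (replicates 1 and 3), and the 45S ribosomal precursor Rn45s took 20.2% to 26.4% of the total in APP/PS1xRIPK1KD, 15.8% to 28.6% in APP/PS1 and 29.7% to 33.8% in WT. Every WT library thus lay above every other library in this share, and leaving Rn45s out of the counts turned 0 of the 30 member results and moved none by more than 0.01 on the log2 scale. Whether the share goes with another difference between the libraries that bears on the members was not tested. The level of Ripk1 itself was 31.4, 44.9 and 35.5 CPM in APP/PS1xRIPK1KD, 75.3, 52.9 and 40.9 CPM in APP/PS1 and 45.0, 48.1 and 35.0 CPM in WT, and a kinase change that leaves the transcript in place would not show in it. The labels call all 9 mice male. Xist, the RNA made from an inactive X chromosome, nevertheless reached at least 264 CPM in replicates 1 and 2 of each genotype and at most 4.78 CPM in replicate 3, where Y-linked transcripts summed to at least 149.8 CPM. The split is the same in each genotype, and the main fit had no term for it. Values without replicate 3 of every genotype are given below for Xbp1, Chac1, Sesn2, Ddit4 and Herpud1, and for the other 5 transcripts they lay between -0.38 and 0.25 on the log2 scale in the 3 comparisons. Summed markers of endothelium lay at 14900 to 15900 CPM in APP/PS1xRIPK1KD, 12800 to 15400 CPM in APP/PS1 and 13500 to 15100 CPM in WT. Of the other cell types, oligodendrocyte markers summed to 426 to 533 CPM in APP/PS1xRIPK1KD, 589 to 712 CPM in APP/PS1 and 590 to 751 CPM in WT. Astrocyte markers summed to 77.4 to 94.5 CPM in APP/PS1xRIPK1KD, 72.3 to 79.0 CPM in APP/PS1 and 39.4 to 111 CPM in WT, and microglia and macrophage markers to 60.2 to 76.1 CPM in APP/PS1xRIPK1KD, 52.5 to 89.9 CPM in APP/PS1 and 51.5 to 87.9 CPM in WT. Gja1 carried most of the astrocyte sum, and others of that list were ordered differently, such as Slc1a3 at 5.62 ± 3.38 CPM in APP/PS1xRIPK1KD, 7.44 ± 2.88 CPM in APP/PS1 and 2.47 ± 1.67 CPM in WT. Gjb6 averaged 0.299 CPM in APP/PS1xRIPK1KD and 1.14 CPM in APP/PS1, and Ntsr2 averaged 0.243 CPM in APP/PS1xRIPK1KD and 1.09 CPM in APP/PS1, while both were at 0 counts throughout WT. Mural cell markers summed to 67.1 to 257 CPM in APP/PS1xRIPK1KD, 179 to 231 CPM in APP/PS1 and 12.8 to 58.7 CPM in WT. Choroid plexus markers gave 387 to 524 CPM in APP/PS1xRIPK1KD, 217 to 367 CPM in APP/PS1 and 204 to 262 CPM in WT, and neuron markers 1.49 to 8.81 CPM in APP/PS1xRIPK1KD, 4.03 to 7.51 CPM in APP/PS1 and 4.32 to 11.9 CPM in WT. The 6 fibroblast markers summed to 2.06 to 7.26 CPM in APP/PS1xRIPK1KD, 6.82 to 13.4 CPM in APP/PS1 and 0.132 to 1.24 CPM in WT, with Lum at 0 counts in every library. All 10 members are transcribed in many cell types, and the part of these other cells in their levels was not tested. In bulk RNA, fewer cells of a type and less RNA per cell cannot be told apart.

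Scaled to the length of the exons, the 10 transcripts formed tiers that were alike in the 9 libraries. Herpud1 averaged 92.4 CPM per kb over the libraries (range 64.0 to 125), Xbp1 87.4 (71.7 to 114) and Ddit4 81.8 (58.5 to 121), and these ranges overlap one another widely. Atf4 came next with 51.7 CPM per kb (42.6 to 59.0), and only its highest library exceeded the lowest of Ddit4. Ddit3 and Trib3 were level with each other at 11.8 CPM per kb each (9.58 to 13.8 and 10 to 14.1). Asns at 5.30 CPM per kb (4.22 to 6.34) lay above Atf5 at 2.85 (2.14 to 3.26) in all 9 libraries. Chac1 at 0.756 (0.354 to 2.11) and Sesn2 at 0.547 (0 to 2.01) were the lowest and overlap with each other. In CPM, Xbp1, Herpud1, Ddit4 and Atf4 together made up 90.3% to 93.3% of the sum of the 10 transcripts in each library.

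**Figure D1:**
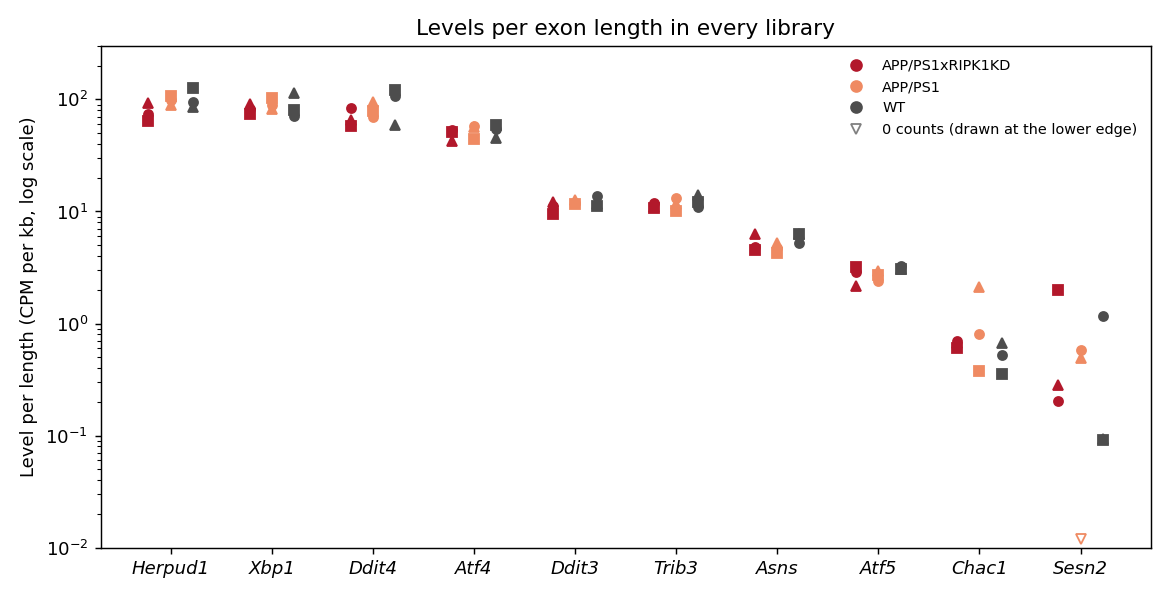
Level of each transcript per kb of exon (vertical axis, CPM per kb, log scale) in each of the 9 libraries, with 1 symbol per library, genotypes from left to right as APP/PS1xRIPK1KD, APP/PS1 and WT, and circles, squares and triangles for replicates 1, 2 and 3. Herpud1, Xbp1 and Ddit4 share the top tier, Ddit3 and Trib3 sit together near 11.8 CPM per kb, and Sesn2 is the one with a library at 0 counts.

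Among the transcription factors, Atf4 is the switch of the integrated stress response (chromosome 15, 80255184 to 80257541 on the plus strand, GRCm38 as for all gene positions). Its level was 125, 121 and 100.5 CPM in the 3 APP/PS1xRIPK1KD libraries, 136, 105 and 134 CPM in APP/PS1, and 129, 139 and 108 CPM in WT. The genotypes overlapped, with both the lowest compound library and the lowest WT library being replicate 3. The fitted log2 fold change was -0.002 ± 0.151 (SE) in APP/PS1 against WT (FDR 0.998, edgeR quasi-likelihood test), with a 95% interval of -0.33 to 0.325. Between APP/PS1xRIPK1KD and APP/PS1 the interval was -0.445 to 0.211, and between APP/PS1xRIPK1KD and WT -0.447 to 0.208 (FDR 1 and 0.995). A change of Atf4 by 1.5-fold in either direction lies outside all 3 intervals.

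Ddit3 encodes CHOP, a factor induced by ATF4 that turns prolonged stress towards cell death (chromosome 10, 127290774 to 127296288 on the plus strand). It stood at 19.3, 16.4 and 20.8 CPM in APP/PS1xRIPK1KD, 20.3, 20.2 and 21.8 CPM in APP/PS1, and 23.6, 19.0 and 20.0 CPM in WT. Its coefficient of variation over the 9 libraries, 9.76%, was the smallest of the 10 transcripts. The 3' end of Ddit3 overlaps the oppositely oriented Mars gene, and reads from the 2 cannot be told apart without strand. In APP/PS1 against WT the log2 fold change was -0.01 ± 0.20 (95% interval -0.437 to 0.421, FDR 0.997). The comparisons of APP/PS1xRIPK1KD with APP/PS1 and with WT gave -0.14 ± 0.20 and -0.15 ± 0.20 (FDR 1 and 0.995), with intervals of -0.567 to 0.292 and -0.574 to 0.283.

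Atf5 encodes a relative of ATF4 that is likewise translated more when eIF2α is phosphorylated, and it takes part in the mitochondrial stress response (chromosome 7, 44812256 to 44816658 on the minus strand). Counts were 76 to 297 per library, or 5.79, 6.34 and 4.27 CPM in APP/PS1xRIPK1KD, 4.78, 5.42 and 5.90 CPM in APP/PS1, and 6.49, 6.09 and 6.08 CPM in WT. All 3 APP/PS1 libraries lay below all 3 WT libraries, the one case among the 10 transcripts and 3 comparisons in which the libraries of a pair of genotypes did not overlap. Of all genes tested, 10.9% did not overlap in APP/PS1 against WT in either direction and 5.44% with APP/PS1 lower, so 1 member in 10 is near that background. The log2 fold change was -0.21 ± 0.34 (FDR 0.974). APP/PS1xRIPK1KD against WT gave -0.19 ± 0.34 (FDR 0.997) and against APP/PS1 0.02 ± 0.34 (FDR 1). The 5' end of Atf5 overlaps Nup62 and Il4i1 on the other strand, so its reads too may be shared.

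Xbp1 encodes the factor that IRE1 activates by splicing and that raises chaperones and degradation factors (chromosome 11, 5520659 to 5525893 on the plus strand). Its level was 268, 239.8 and 293 CPM in APP/PS1xRIPK1KD, 290.4, 331 and 267 CPM in APP/PS1, and 233, 260.0 and 371 CPM in WT. WT alone held both the lowest and the highest of the 9 libraries, and its SD was more than the differences between the genotype means of 267 ± 26.5 CPM in APP/PS1xRIPK1KD, 296 ± 32.4 CPM in APP/PS1 and 288 ± 73.4 CPM in WT (SD, n = 3 each). The fold change on the log2 scale was 0.04 ± 0.17 in APP/PS1 against WT (FDR 0.989), -0.15 ± 0.17 in APP/PS1xRIPK1KD against APP/PS1 (FDR 1) and -0.11 ± 0.17 in APP/PS1xRIPK1KD against WT (FDR 0.995). WT replicate 3, the highest, is 1 of the 3 libraries without Xist, and with replicate 3 of every genotype left out the value for APP/PS1 against WT was 0.34 (FDR 0.434), that for APP/PS1xRIPK1KD against APP/PS1 -0.29 (FDR 0.594) and that for APP/PS1xRIPK1KD against WT 0.04 (FDR 0.992).

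**Figure D2:**
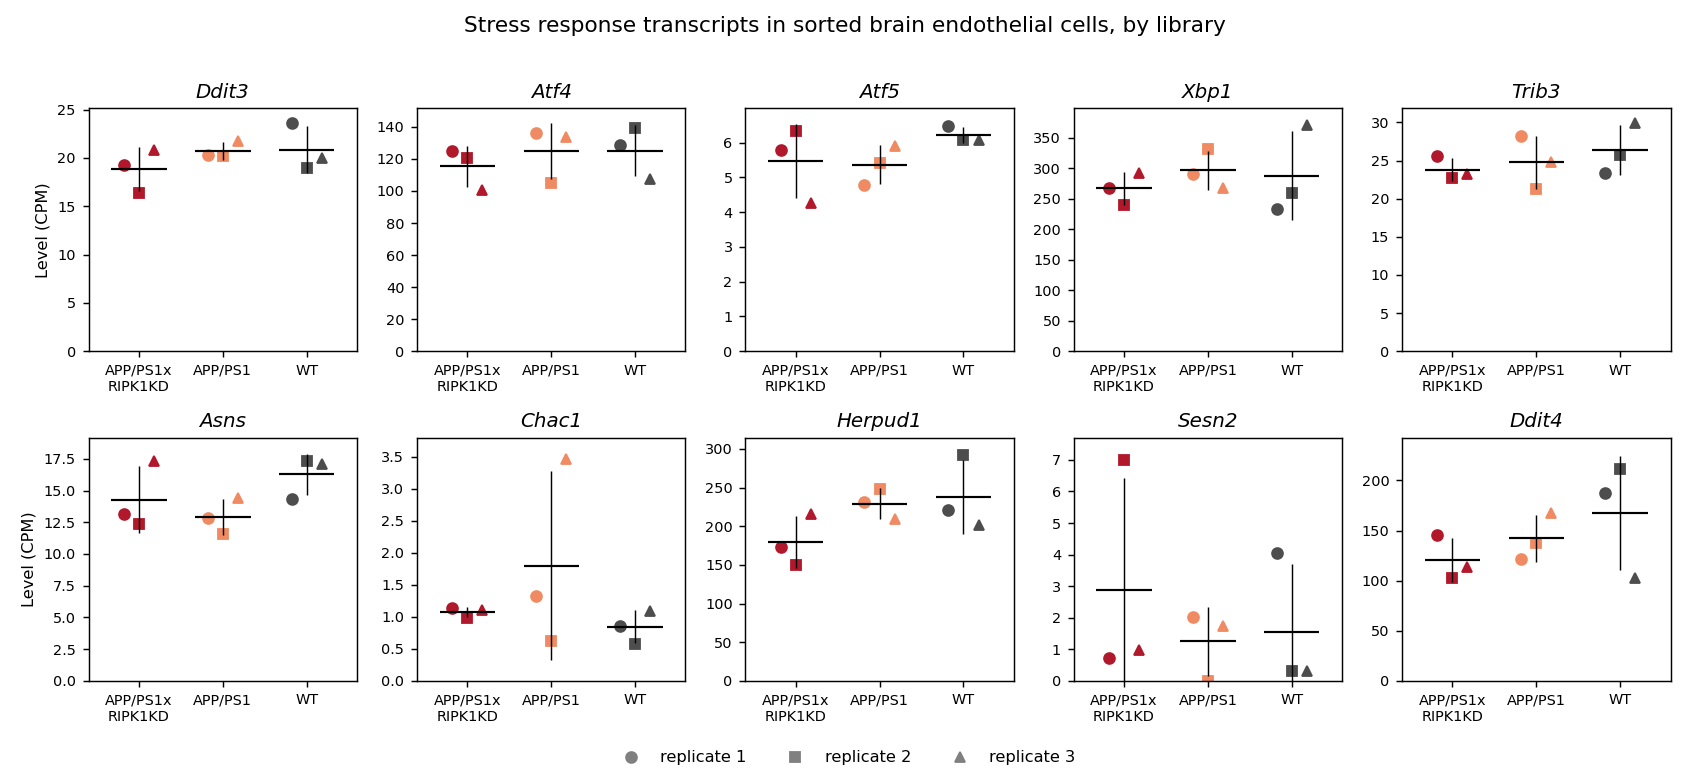
Level of each of the 10 transcripts (CPM, linear axis from 0) in APP/PS1xRIPK1KD, APP/PS1 and WT, with 1 symbol per library (circle, square and triangle for replicates 1, 2 and 3), a bar at the mean and a line of ± 1 SD (n = 3). The genotypes overlap in 9 of the 10 panels, in the Atf5 panel APP/PS1 lies below WT, and single libraries set the means of Chac1 and Sesn2.

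Of the effectors downstream of ATF4 and CHOP, Trib3 encodes a pseudokinase that binds ATF4 and the kinase AKT and restrains both (chromosome 2, 152337422 to 152344032 on the minus strand). It was measured at 25.5, 22.7 and 23.2 CPM in APP/PS1xRIPK1KD, 28.3, 21.3 and 24.8 CPM in APP/PS1, and 23.4, 25.7 and 29.9 CPM in WT. No genotype stood apart, and the lowest and highest libraries differed by a factor of 1.41. Its fitted difference on the log2 scale was -0.09 ± 0.19 in APP/PS1 against WT (FDR 0.979), -0.06 ± 0.19 in APP/PS1xRIPK1KD against APP/PS1 (FDR 1) and -0.15 ± 0.19 in APP/PS1xRIPK1KD against WT (FDR 0.995). None of the 3 intervals went below -0.56 or above 0.358.

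Asns encodes asparagine synthetase, which makes asparagine from aspartate and glutamine and is a standard readout of ATF4 (chromosome 6, 7675169 to 7693254 on the minus strand). Its level was 13.2, 12.4 and 17.3 CPM in APP/PS1xRIPK1KD, 12.8, 11.5 and 14.4 CPM in APP/PS1, and 14.4, 17.3 and 17.1 CPM in WT. Means were 14.3 ± 2.65 CPM in APP/PS1xRIPK1KD, 12.9 ± 1.44 CPM in APP/PS1 and 16.3 ± 1.65 CPM in WT (SD, n = 3 each), and the highest APP/PS1 library only just reached the lowest WT library. The log2 fold change of -0.33 ± 0.24 in APP/PS1 against WT (FDR 0.89) carried the smallest FDR of the 10 transcripts in that comparison. In APP/PS1xRIPK1KD it was 0.14 ± 0.24 against APP/PS1 (FDR 1) and -0.19 ± 0.24 against WT (FDR 0.995).

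Chac1 encodes an enzyme that breaks down glutathione and is among the most inducible ATF4 targets in stressed mouse and human cells (chromosome 2, 119351229 to 119354381 on the plus strand). It rested on 56, 43 and 61 counts in APP/PS1xRIPK1KD, 21, 33 and 174 counts in APP/PS1, and 29, 22 and 51 counts in WT. In CPM these are 1.14, 0.981 and 1.10 in APP/PS1xRIPK1KD, 1.32, 0.615 and 3.46 in APP/PS1, and 0.856, 0.580 and 1.09 in WT. A single library, APP/PS1 replicate 3, was high. The log2 fold change of 1.09 ± 0.89 in APP/PS1 against WT (95% interval -0.836 to 3.02, FDR 0.911) became 0.19 without that library. The same library had the highest sum of the 5 blood cell markers that matched the matrix, 5498 CPM, against 1662 and 1122 CPM in the other 2 APP/PS1 libraries, and the part of blood cells in the Chac1 value was not tested. APP/PS1xRIPK1KD against APP/PS1 gave -0.74 ± 0.88 (FDR 1), which became 0.16 without APP/PS1 replicate 3, and APP/PS1xRIPK1KD against WT gave 0.35 ± 0.88 (FDR 0.999). Without replicate 3 of every genotype, APP/PS1 against WT gave 0.42, APP/PS1xRIPK1KD against APP/PS1 0.14 and APP/PS1xRIPK1KD against WT 0.56 (FDR 0.945 to 0.991).

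Sesn2 encodes a leucine sensor that holds mTORC1 in check and is induced by ATF4 (chromosome 4, 132492032 to 132510501 on the minus strand). Its level jumped between libraries of the same genotype, at 0.714, 6.98 and 0.973 CPM in APP/PS1xRIPK1KD, 2.01, 0 and 1.73 CPM in APP/PS1, and 4.04, 0.316 and 0.321 CPM in WT. The 0 in APP/PS1 replicate 2 allows up to 0.0559 CPM, counting 3 reads as the limit. With a coefficient of variation of 119.7% over the libraries, Sesn2 carried intervals that span -3.52 to 2.86 in APP/PS1 against WT, -1.99 to 4.44 in APP/PS1xRIPK1KD against APP/PS1 and -2.29 to 4.07 in APP/PS1xRIPK1KD against WT. The log2 fold changes themselves were -0.33 ± 1.47, 1.23 ± 1.48 and 0.89 ± 1.46 (FDR 0.989, 1 and 0.995). Left out one at a time, single libraries turned the sign in all 3 comparisons, and no difference in Sesn2 exceeded the spread between libraries of 1 genotype. Without replicate 3 of every genotype the 3 values, in the order of these comparisons, were -1.17, 1.99 and 0.82 (FDR 0.831 to 0.984).

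Ddit4 encodes REDD1, an inhibitor of mTORC1 that is induced by ATF4 and also by hypoxia, glucocorticoids and p53 (chromosome 10, 59949669 to 59951834 on the minus strand). It was at 146, 103 and 114 CPM in APP/PS1xRIPK1KD, 122, 138 and 168 CPM in APP/PS1, and 188, 212 and 103 CPM in WT. Means were 121 ± 22.3 CPM in APP/PS1xRIPK1KD, 143 ± 23.4 CPM in APP/PS1 and 168 ± 57.2 CPM in WT (SD, n = 3 each), while WT replicate 3 lay well below the other 2 WT libraries, level with the lowest APP/PS1xRIPK1KD library. The log2 fold change was -0.47 ± 0.24 in APP/PS1xRIPK1KD against WT (FDR 0.854), -0.23 ± 0.24 in APP/PS1 against WT (FDR 0.931) and -0.24 ± 0.24 in APP/PS1xRIPK1KD against APP/PS1 (FDR 1). Without WT replicate 3 the values against WT were -0.73 for APP/PS1xRIPK1KD (FDR 0.302) and -0.49 for APP/PS1. Without replicate 3 of every genotype they were -0.69 for APP/PS1xRIPK1KD (FDR 0.452) and -0.62 for APP/PS1 (FDR 0.307), still short of the threshold, and APP/PS1xRIPK1KD against APP/PS1 was -0.07 (FDR 0.966). Among the replicate 3 libraries themselves, which lack Xist and number 1 per genotype so that no test is possible, the order was different, with 114 CPM in APP/PS1xRIPK1KD, 168 CPM in APP/PS1 and 103 CPM in WT. The 12 glucocorticoid receptor targets summed to 2284 CPM in WT replicate 3 against 3938 and 4406 CPM in the other 2 WT libraries, and the part of that difference in the Ddit4 value was not tested.

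Herpud1 is the one effector on the side of the ER membrane, where its product assembles the HRD1 complex of ER-associated degradation, and it is raised by ATF6, XBP1 and ATF4 (chromosome 8, 94386438 to 94395377 on the plus strand, with both kinds of element in the start region printed above). Its level was 173, 149 and 216 CPM in APP/PS1xRIPK1KD, 231, 248 and 209 CPM in APP/PS1, and 221, 292 and 201 CPM in WT. In APP/PS1xRIPK1KD, 2 of the 3 libraries lay below every library of the other genotypes, and replicate 3 lay within their range. The log2 fold change of -0.41 ± 0.17 in APP/PS1xRIPK1KD against WT, a level of 0.754 times WT, had an unadjusted p of 0.0342 and an FDR of 0.776 (edgeR quasi-likelihood test). Against APP/PS1 it was -0.35 ± 0.17 (FDR 1), and APP/PS1 against WT gave -0.05 ± 0.17 (FDR 0.988). With replicate 3 of every genotype left out, the values for APP/PS1xRIPK1KD were -0.67 against WT (FDR 0.394) and -0.57 against APP/PS1 (FDR 0.439). The replicate 3 libraries alone gave 216 CPM in APP/PS1xRIPK1KD, 209 CPM in APP/PS1 and 201 CPM in WT, with no test possible.

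The calls among the 10 transcript levels are set here beside the share of all genes called in each comparison. In APP/PS1 against WT, 0 of 10 passed an FDR of 0.05 by the edgeR quasi-likelihood test and 0 had an unadjusted p under 0.05, where 0.0225% and 6.14% of all genes tested did. In APP/PS1xRIPK1KD against APP/PS1, 0 passed the FDR and 0 the unadjusted threshold (0.00751% and 4.78% of all genes). In APP/PS1xRIPK1KD against WT, 0 passed the FDR and 1, Herpud1, had an unadjusted p under 0.05 with the level lower (0.0375% and 6.18% of all genes, 3.21% in the lower direction). Of the 3 other tools, the edgeR exact test and limma-voom gave 0 calls among the 10 and DESeq2 gave 0 among the 9 for which it returned an adjusted p (all but Sesn2). No member was without overlap between APP/PS1xRIPK1KD and APP/PS1 (background 9.98%) or between APP/PS1xRIPK1KD and WT (background 12%).

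The intervals bound what these libraries could have missed. For 8 of the 10 transcripts, all but Chac1 and Sesn2, the 95% interval lay within a 2-fold change in both directions in each of the 3 comparisons. A p that misses the threshold does not show that the levels are equal, and changes below that size remain possible. Fitted values were below 0 for 8 of 10 transcripts in APP/PS1 against WT, 7 of 10 in APP/PS1xRIPK1KD against APP/PS1 and 8 of 10 in APP/PS1xRIPK1KD against WT, where 50.2%, 49.4% and 50.6% of all genes were above 0. The medians over the 10 were -0.07, -0.13 and -0.15, beside 0.00192, -0.00343 and 0.00314 over all genes tested. Each pair of these comparisons shares the libraries of 1 genotype, so these counts are not independent of one another. Summed over the 10 transcripts the level was 778, 678 and 791 CPM in APP/PS1xRIPK1KD, 849, 881 and 850.0 CPM in APP/PS1, and 843, 972 and 857 CPM in WT, a sum made up mostly of Xbp1, Herpud1, Ddit4 and Atf4.

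**Figure D3:**
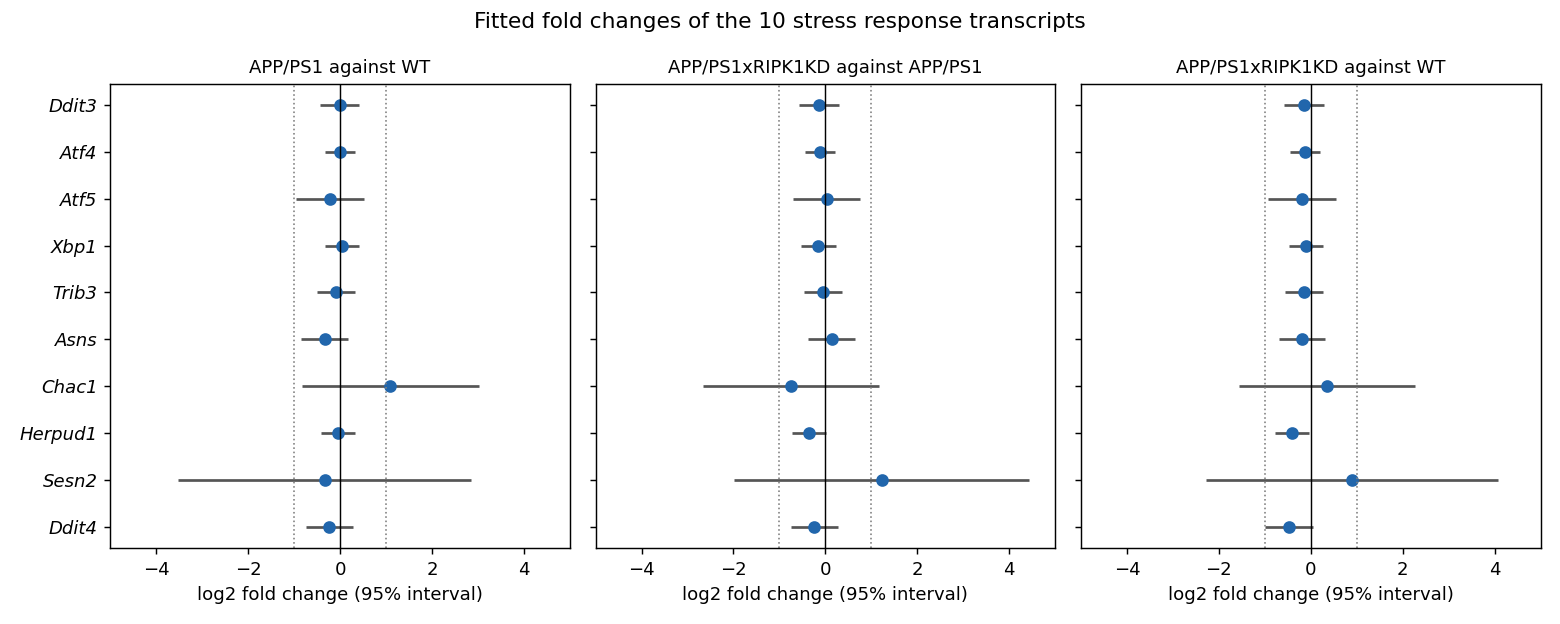
Fitted log2 fold change of each transcript (horizontal axis, points) with its 95% interval (lines) in APP/PS1 against WT, APP/PS1xRIPK1KD against APP/PS1 and APP/PS1xRIPK1KD against WT, and dotted lines at a 2-fold change. Intervals of 8 transcripts stay between the dotted lines in every panel, those of Chac1 and Sesn2 do not, and Herpud1 in the right panel has an interval of -0.778 to -0.0355.

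The authors' deposited table of APP/PS1 against WT lists all 10 transcripts among its 12460 genes. In the authors' deposited table the log2 fold changes of Asns and Chac1 are -0.37 and 1.18 (FDR 0.934 and 0.951), and those of Atf4, Ddit3, Xbp1 and Herpud1 lie between -0.08 and 0.02 (FDR 0.996 to 0.998). The remaining values in the authors' deposited table are -0.15 for Atf5, -0.09 for Trib3, -0.08 for Sesn2 and -0.23 for Ddit4, with an FDR of at least 0.981.

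The transcripts did not move as one block from library to library. Each was standardised over the 9 libraries on log2 CPM with a pseudocount of 0.5, and pairs were compared by the root mean square difference of the standardised values, where 0 would be identical profiles. Atf4 and Ddit4 were the closest pair at 0.818, followed by Herpud1 and Ddit4 at 0.85 and by Ddit3 and Ddit4 at 0.995. The 2 transcription factors of the separate arms, Atf4 and Xbp1, were among the farthest apart at 1.69, next to Xbp1 and Sesn2 at 1.75. In WT replicate 3, a library without Xist, Xbp1 (1.87 SD), Trib3 and Asns were above their own means while Atf4 (-0.98 SD) and Ddit4 were below them. These are descriptions over libraries that share genotype, depth and scaling. No value for unrelated profiles was set beside the differences. They rank the pairs from most to least alike, and whether any pair is related or opposed was not tested.

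**Figure D4:**
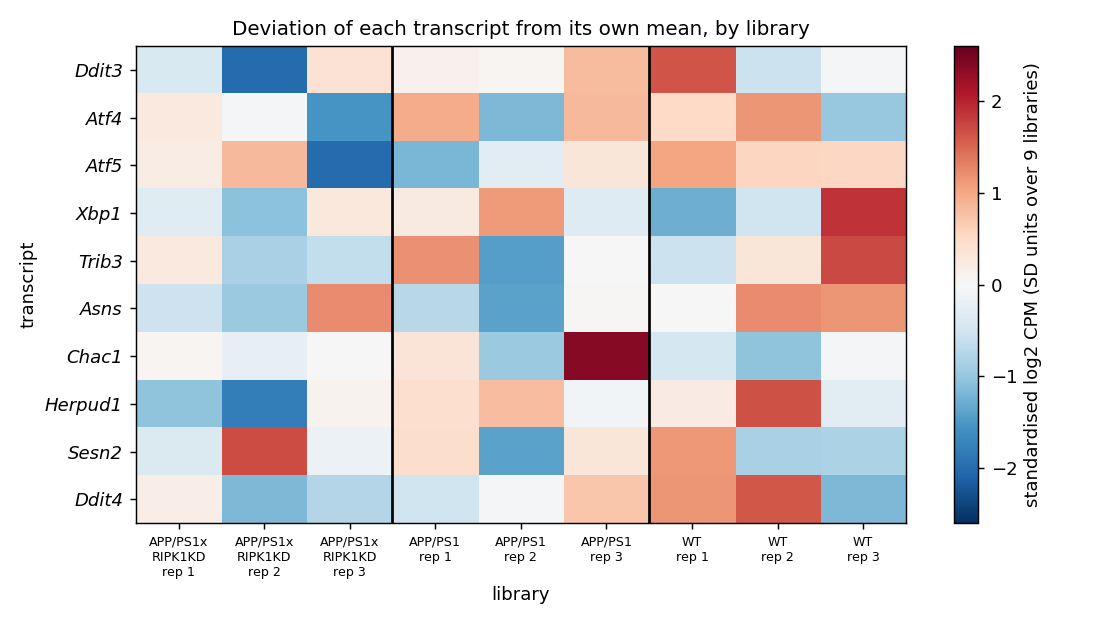
Deviation of each transcript (rows) from its own mean in each library (columns, ordered APP/PS1xRIPK1KD, APP/PS1, WT), in SD units of log2 CPM over the 9 libraries, red above and blue below the mean. Chac1 is high in APP/PS1 replicate 3, Sesn2 in APP/PS1xRIPK1KD replicate 2, and Xbp1 and Trib3 in WT replicate 3, and no column is of 1 colour throughout.

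Outside the 10, the transcripts with the profile nearest to the average of Trib3, Asns, Chac1, Sesn2, Ddit3 and Atf5 over the 9 libraries, among 9718 tested genes of at least 5 CPM on average, were Mvp (0.247), Slc52a3 (0.3), Slc9a3r1 (0.339), Keap1 (0.343) and Zdhhc1 (0.353), by the same root mean square difference. Pairs of the averaged members differed by 1.01 (Trib3 and Asns) to 1.49 (Asns and Sesn2), so their average need not be the profile of any 1 of them. Each of the nearest genes was lowest in APP/PS1 replicate 2, the library with the smallest Rn45s share (15.8%). They were picked for likeness among 9718 genes, so it does not show a link to ATF4, and its source was not tested. Nearest to Ddit4 were Angptl4 (0.264), Nfkbia (0.354), Rasa3 (0.363), Zbtb38 (0.374) and Gpx4 (0.382). Angptl4, a secreted inhibitor of lipoprotein lipase, was at 53.1, 35.3 and 35.6 CPM in APP/PS1xRIPK1KD, 40.4, 61 and 60 CPM in APP/PS1, and 78.1, 80.8 and 36.9 CPM in WT, and like Ddit4 it was low in WT replicate 3.

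The rest of the pathway was followed in 10 gene lists with 152 members, all found in the matrix and 143 of them tested. Cdkn1a stands in both the glucocorticoid receptor and the p53 list, so these are 151 different genes with 142 tested. None of the 142 passed an FDR of 0.05 in any of the 3 comparisons by the edgeR quasi-likelihood test. DESeq2 called 2, 2 and 3 list genes in APP/PS1 against WT, APP/PS1xRIPK1KD against APP/PS1 and APP/PS1xRIPK1KD against WT, the edgeR exact test 0, 2 and 1, and limma-voom 0 in each. Counts at an unadjusted p under 0.05 are given list by list, beside a background of 6.14%, 4.78% and 6.18% of all genes in the same 3 comparisons.

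Upstream, the 19 tested sensors and translation switch genes had 1 gene higher and 3 lower at an unadjusted p under 0.05 in APP/PS1 against WT, 0 in APP/PS1xRIPK1KD against APP/PS1, and 1 higher and 1 lower in APP/PS1xRIPK1KD against WT. Eif2ak3, which encodes PERK, was at 10.1, 19.3 and 25.6 CPM in APP/PS1xRIPK1KD, 15.9, 11.7 and 15.6 CPM in APP/PS1, and 26.8, 23.2 and 29.1 CPM in WT. All APP/PS1 libraries lay below all WT libraries (log2 fold change -0.88 ± 0.30, FDR 0.787). Of the 19 genes, 4 were lower and 3 higher without overlap in this comparison, beside 10.9% of all genes in either direction. The higher ones were Dnajc3, Ppp1r15b and Nck1. Ern1, which encodes IRE1, averaged 4.28 ± 1.29 CPM in APP/PS1xRIPK1KD, 4.72 ± 2.56 CPM in APP/PS1 and 8.19 ± 2.495 CPM in WT (FDR 0.848 for APP/PS1 against WT). Atf6 averaged 33.5 ± 5.22 CPM in APP/PS1xRIPK1KD, 31.3 ± 7.51 CPM in APP/PS1 and 29.0 ± 3.12 CPM in WT. Ppp1r15a, the phosphatase subunit that ends the eIF2α signal, averaged 45.2 ± 12.98 CPM in APP/PS1xRIPK1KD, 59.5 ± 24.0 CPM in APP/PS1 and 44.1 ± 7.61 CPM in WT, and neither gene had an FDR under 0.876 in any comparison.

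The 20 ER chaperones and folding enzymes, targets of ATF6 and XBP1, were above 0 for 16 genes and below for 4 in APP/PS1 against WT, with a median of 0.12 and 3 genes higher at an unadjusted p under 0.05. Hspa5, which encodes the main ER chaperone BiP, was at 443, 409.8 and 610.2 CPM in APP/PS1xRIPK1KD, 493, 569.8 and 512 CPM in APP/PS1, and 358, 369 and 451 CPM in WT. The 3 APP/PS1 libraries lay above the 3 WT libraries (log2 fold change 0.42 ± 0.16, FDR 0.787). Hsp90b1, the chaperone GRP94, did the same at 571 ± 70.4 CPM in APP/PS1 and 452 ± 47.5 CPM in WT (FDR 0.793), whereas Dnajb9, a target of XBP1, was at 112 ± 8.05 CPM in APP/PS1 and 103 ± 21.98 CPM in WT (FDR 0.96). Hspa5 and Hsp90b1 were the 2 of 20 genes without overlap, beside 10.9% of all genes in this comparison. In APP/PS1xRIPK1KD the list was above 0 for 7 of 20 against APP/PS1 and for 14 of 20 against WT, with medians of -0.07 and 0.06 and 0 genes against APP/PS1 and 1 higher gene against WT at an unadjusted p under 0.05. The 17 tested genes of ER-associated degradation split 9 above and 8 below 0 in APP/PS1 against WT, 9 and 8 in APP/PS1xRIPK1KD against APP/PS1 and 8 and 9 in APP/PS1xRIPK1KD against WT. At an unadjusted p under 0.05 they gave 2 higher and 3 lower genes, 2 lower genes, and 1 higher and 2 lower genes in the same 3 comparisons. Edem3, a mannosidase-like degradation factor, was at 34.3 ± 2.65 CPM in APP/PS1xRIPK1KD, 32.6 ± 7.55 CPM in APP/PS1 and 21.6 ± 2.54 CPM in WT (FDR 0.596 for APP/PS1xRIPK1KD and 0.787 for APP/PS1, each against WT).

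Downstream of ATF4, the amino acid synthesis and one-carbon genes, the tRNA synthetases and the amino acid carriers had medians between -0.15 and 0.10 in all 3 comparisons. In APP/PS1 against WT, 2 of the 12 tested synthesis genes, 1 of 18 synthetases and 1 of 9 carriers were higher at an unadjusted p under 0.05 and 0 were lower. For APP/PS1xRIPK1KD against APP/PS1, 1 synthesis gene was higher and 1 lower, 2 synthetases were higher and 2 carriers were lower at that threshold, and in APP/PS1xRIPK1KD against WT 1 gene of each list was higher. Psat1 and Phgdh, enzymes of serine synthesis, averaged 2.601 ± 2.16 and 1.53 ± 1.11 CPM in APP/PS1xRIPK1KD, 3.49 ± 2.71 and 1.63 ± 1.76 CPM in APP/PS1, and 2.78 ± 1.52 and 3.64 ± 2.09 CPM in WT (no FDR under 0.916). Mthfd1l, a mitochondrial folate enzyme, was at 4.94, 3.36 and 4.90 CPM in APP/PS1xRIPK1KD, 20.0, 8.00 and 17.9 CPM in APP/PS1, and 6.64, 7.22 and 8.84 CPM in WT. Its log2 fold change in APP/PS1xRIPK1KD against APP/PS1 was -1.79 ± 0.37 (FDR 0.696), and it passed the threshold with DESeq2 (adjusted p = 0.00855) and with the edgeR exact test (adjusted p = 0.0317). Slc1a4, a carrier of neutral amino acids, was at 2.06, 2.31 and 1.46 CPM in APP/PS1xRIPK1KD, 3.15, 1.42 and 6.38 CPM in APP/PS1, and 0.590, 0.185 and 0.385 CPM in WT (APP/PS1 against WT 3.23 ± 0.81, FDR 0.707, and adjusted p = 0.0153 with DESeq2). Aldh1l2, another mitochondrial folate enzyme, was at 0.877, 3.40 and 0 CPM in APP/PS1xRIPK1KD and 0.252, 1.94 and 0.954 CPM in APP/PS1, and had 0 counts in all 3 WT libraries. Replicate 2 carried the mean in both genotypes, and 1 APP/PS1xRIPK1KD library was at 0 as in WT. Against WT the FDR was 0.596 for APP/PS1xRIPK1KD and 0.787 for APP/PS1, and the adjusted p with DESeq2 was 0.015 for APP/PS1xRIPK1KD and 0.0392 for APP/PS1.

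Among the 15 tested other ATF4 and CHOP targets and partners, 9 were above 0 in APP/PS1 against WT, 3 in APP/PS1xRIPK1KD against APP/PS1 and 5 in APP/PS1xRIPK1KD against WT. At an unadjusted p under 0.05 the counts were 2 higher, 3 lower and 0. Atf3, an early stress-induced factor, was at 17.1, 20.7 and 20.3 CPM in APP/PS1xRIPK1KD, 49.2, 23.7 and 32.2 CPM in APP/PS1, and 21.9, 22.5 and 12.4 CPM in WT. All 3 APP/PS1 libraries lay above those of the other genotypes, with log2 fold changes of 0.89 ± 0.29 in APP/PS1 against WT (FDR 0.787) and -0.85 ± 0.29 in APP/PS1xRIPK1KD against APP/PS1 (FDR 0.98), both of which use the same APP/PS1 libraries. Without overlap, 2 of the 15 genes were higher and 1 lower in APP/PS1 against WT (10.9% of all genes). In APP/PS1xRIPK1KD against APP/PS1, 2 were lower without overlap (9.98% of all genes). The transcript of Nupr1, a small stress-induced nuclear protein, was less abundant than that of Atf3. Nupr1 averaged 1.34 ± 0.13 CPM in APP/PS1xRIPK1KD, 3.96 ± 1.15 CPM in APP/PS1 and 0.795 ± 0.485 CPM in WT. Its log2 fold change was 2.31 ± 0.74 in APP/PS1 against WT (FDR 0.787).

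**Figure D5:**
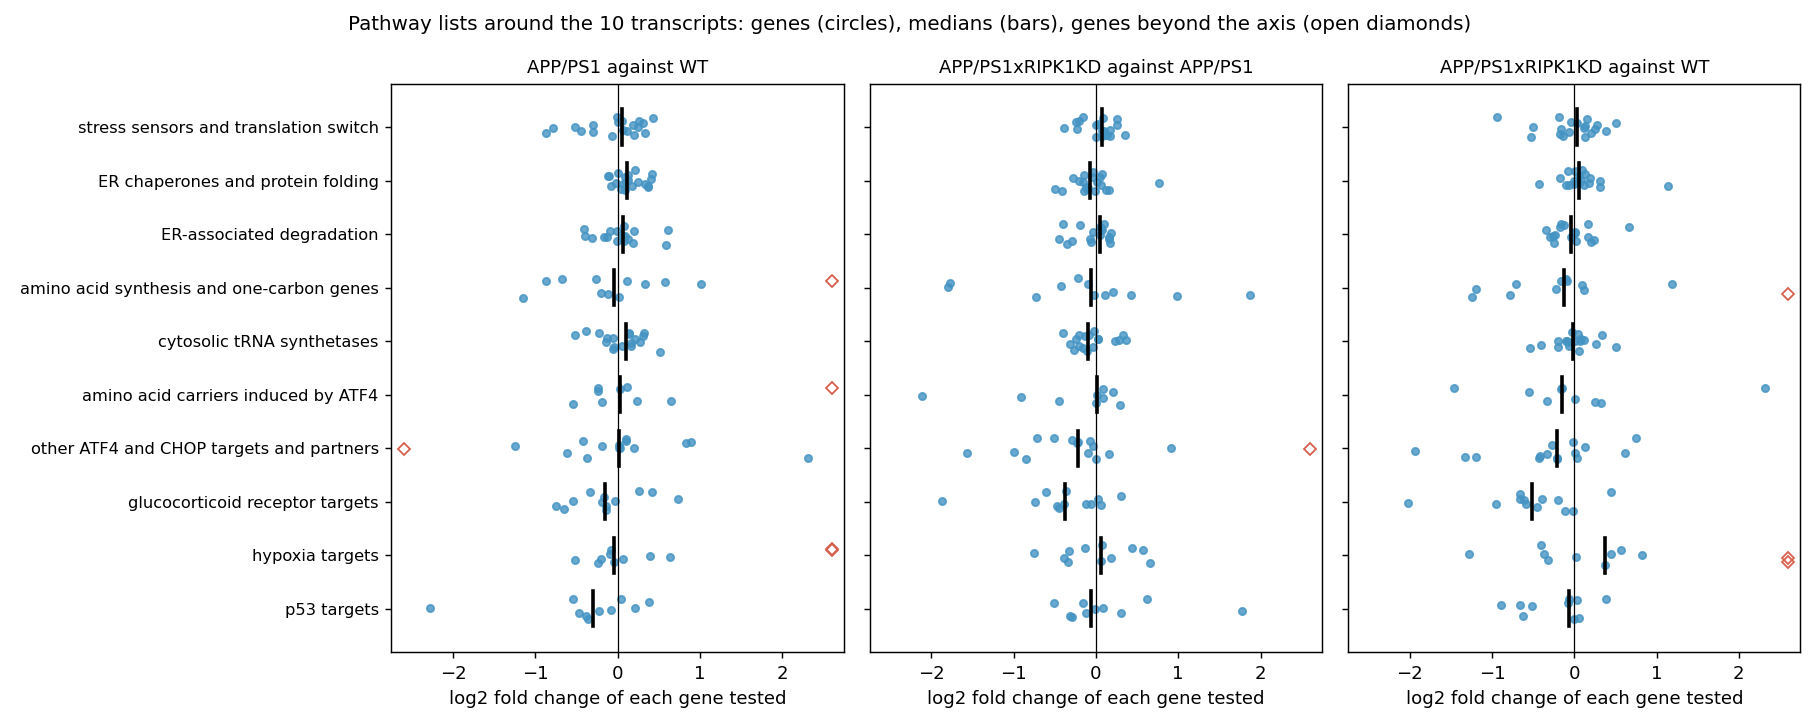
Fitted log2 fold change of every tested gene (circles) of the 10 pathway lists (rows) in APP/PS1 against WT, APP/PS1xRIPK1KD against APP/PS1 and APP/PS1xRIPK1KD against WT, with black bars at the list medians and open diamonds for genes beyond the axis. The chaperone list has its median at 0.12 in the left panel, and the glucocorticoid receptor targets have theirs at -0.52 in the right panel.

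Since Ddit4 and Sesn2 also answer to other signals, the targets of the glucocorticoid receptor, of hypoxia and of p53 were set beside them. The 12 glucocorticoid receptor targets had medians of -0.16 in APP/PS1 against WT, -0.37 in APP/PS1xRIPK1KD against APP/PS1 and -0.52 in APP/PS1xRIPK1KD against WT. Of the 12, 9, 9 and 11 were below 0 in the same order, and Mt1, Mt2 and Errfi1 were above 0 in APP/PS1xRIPK1KD against APP/PS1. At an unadjusted p under 0.05, 2, 2 and 4 of them were lower in these comparisons and 0 were higher. Fkbp5, a chaperone of the receptor and one of its most used readouts, was at 7.40, 4.02 and 7.39 CPM in APP/PS1xRIPK1KD, 17.6, 35.9 and 15.5 CPM in APP/PS1, and 28.5, 26.9 and 20.9 CPM in WT. Every APP/PS1xRIPK1KD library lay below every other library (log2 fold change -2.02 ± 0.35 against WT, FDR 0.117, and -1.88 ± 0.35 against APP/PS1, FDR 0.696). Without overlap, 2 of the 12 targets were lower against WT (12% of all genes in either direction) and 4 against APP/PS1 (9.98%). With DESeq2 the adjusted p of Fkbp5 was 2.73e-05 against WT and 0.000807 against APP/PS1, and with the edgeR exact test it was 0.00016 against WT and 0.00578 against APP/PS1. Klf9, a transcription factor induced by the receptor, averaged 154 ± 2.10 CPM in APP/PS1xRIPK1KD, 209 ± 18.2 CPM in APP/PS1 and 235 ± 46.0 CPM in WT (FDR 0.531 against WT, and adjusted p = 0.0366 with DESeq2). Tsc22d3, another of the targets, was at 532, 607 and 776 CPM in APP/PS1xRIPK1KD, 880, 986 and 789 CPM in APP/PS1, and 943, 1406 and 678 CPM in WT. Its WT replicate 3 lay below the highest APP/PS1xRIPK1KD library. Hypoxia targets had medians of -0.05, 0.06 and 0.37 in the 3 comparisons and p53 targets -0.30, -0.07 and -0.07, with genes on both sides of 0 in each. At an unadjusted p under 0.05, the 11 tested hypoxia targets gave 2 higher genes, 1 lower gene, and 2 higher and 3 lower genes in the same 3 comparisons, and the 10 p53 targets gave 0 genes, 0 genes and 2 lower genes.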

How the data were processed

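Smart-seq2 libraries, primed from poly(A), unstranded and without molecular identifiers, were made from sorted cells, per the labels' protocols. The authors deposited RSEM expected counts per gene, without normalization, 28.3% of them not whole. The submitters' processing notes name Bowtie 0.12.2, RSEM, edgeR 3.10.2 and mm10 (GRCm38), and name no annotation. The authors also deposited an edgeR table of APP/PS1 against WT with log2 fold changes and log2 abundances, a likelihood ratio score, and p-values with their FDR, which was used only beside the values computed here.

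Expected counts were rounded, filtered with filterByExpr (minimum count 10, minimum total 15), scaled by TMM and fitted over 9 libraries in 1 edgeR 4.0.16 quasi-likelihood model (robust, R 4.3.3). The 3 contrasts were tested 2-sided, with Benjamini-Hochberg adjustment over 13317 genes (FDR 0.05). CPM is the expected count scaled to the TMM-adjusted library size. Alternatives were DESeq2 1.42.0, limma-voom 3.58.1, the edgeR exact test, other scalings, filters and sets of libraries. Lengths and positions are GENCODE M21, promoters RefSeq. The fit was also run on simulated data, of which no outcome is given here. The labels describe 1 mouse per library, and p-values measure the spread between these libraries. The floor of 3 counts covers counting error only, while the intervals of fold changes carry the spread between libraries.

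The 10 transcripts, the lists and the markers were chosen with earlier results of these data known. Named list genes are those past the FDR threshold, a fixed set (such as Hspa5, Eif2ak3, Atf3 and Fkbp5) and the 2 with the smallest p per list and comparison, of which some are described.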

Additional observations from a re-analysis of the deposited data

How the results depend on the processing

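The 30 member results (10 transcripts in 3 comparisons) were recomputed under 15 to 17 alternatives each, of 20 in all, since leaving out a library was done only where it belongs to a genotype compared. Of 501 values, 463 kept their direction, 38 turned it and 0 passed an FDR of 0.05. Chac1 and Sesn2 have no value under a filter of at least 5 CPM on average, and Sesn2 has no adjusted p with DESeq2.

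In APP/PS1 against WT the values that turned were Ddit3 with RLE size factors (0.00049), DESeq2 (0.000957) and limma-voom (0.0125), Atf4 with RLE (0.00641), DESeq2 (0.00619), 2 genotypes only (0.00211) and the replicate block (0.00337), Trib3 without replicate 3 of every genotype (0.00806) and Sesn2 with the replicate block (0.259). In APP/PS1xRIPK1KD against APP/PS1 they were Atf5 (-0.0538) and Trib3 (0.00471) with limma-voom, and Atf4 (0.0259) and Chac1 (0.144) without replicate 3 of every genotype, and in APP/PS1xRIPK1KD against WT it was Xbp1 (0.0436) in that setting. The cause was not tested.

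Leaving out 1 library at a time gave ranges that cross 0 in APP/PS1 against WT for Ddit3 (-0.071 to 0.0897), Atf4 (-0.101 to 0.106), Trib3 (-0.193 to 0.0104), Herpud1 (-0.161 to 0.121), Xbp1 (-0.0911 to 0.266) and Sesn2 (-0.847 to 1.95). In APP/PS1xRIPK1KD against APP/PS1 they do so for Asns (-0.0117 to 0.246), Atf5 (-0.0877 to 0.181), Trib3 (-0.144 to 0.047), Chac1 (-1.14 to 0.162) and Sesn2 (-0.539 to 1.74), and against WT for Xbp1 (-0.241 to 0.116) and Sesn2 (-0.868 to 3.17).

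Counts of all genes called moved from 3 in APP/PS1 against WT to 7 with no filter, 45 with DESeq2 and 17 with the exact test (1 to 5 leaving out 1 library). In APP/PS1xRIPK1KD against APP/PS1 they moved from 1 to 20 with DESeq2 and 11 with the exact test, and to 0 with limma-voom, without replicate 3 of every genotype and with the replicate block (0 to 4 leaving out 1 library). In APP/PS1xRIPK1KD against WT they moved from 5 to 8 with upper-quartile scaling, 14 with no filter, 63 with DESeq2, 37 with the exact test, 2 with limma-voom, 3 with 2 genotypes only, 8 without replicate 3 of every genotype and 0 with the replicate block (2 to 9 leaving out 1 library). List genes called moved from 0 to 2 (DESeq2) in APP/PS1 against WT, to 2 (DESeq2) and 2 (exact test) in APP/PS1xRIPK1KD against APP/PS1, and to 1 (no filter, Fkbp5), 1 (at least 5 CPM, Fkbp5), 3 (DESeq2) and 1 (exact test) in APP/PS1xRIPK1KD against WT.

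Deviations of same-numbered libraries correlated at -0.0431 to 0.153 across genes in the 3 comparisons, and not every library correlated best with its own number. The main fit therefore did not pair libraries by number. Replicate 3 is still the library without Xist in every genotype, and these libraries correlated with each other at 0.0248 to 0.153. The main fit had no term for this split, so it is part of the spread behind the SEs and intervals. Chac1 rested on 21 to 174 counts per library and Sesn2 on 0 to 306.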
